A study of Mus musculus with 16 samples.

Results

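The genes described here are 34 members of glycolysis, lactate export and the pentose phosphate pathway: glucose transporters, the enzymes from hexokinase to pyruvate kinase, lactate dehydrogenases and lactate transporters, the entry of pyruvate into mitochondria, and the pentose phosphate enzymes. They were chosen by symbol, with earlier results of these data known, out of 55290 gene symbols in the CD8 T cell tables and 53112 in the tumour tables. All 34 were present in both kinds of table and passed the filter on low values in both. The RNA came from HM1, a model of ovarian cancer grown in mice, and mannose, a sugar related to glucose, was supplemented or withheld. CD8 T cells sorted from tumours gave 3 mannose and 3 control libraries, and whole tumour tissue gave 5 mannose and 5 control libraries. The labels name no other agent, strain, age, sort gate or number of animals, and do not give whether the anti-PD-1 treatment that the series title mentions was used. Nor do they tie libraries to animals, so the p-values rest on the spread between libraries, which may be technical in part.

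Values are TPM, transcript abundance scaled for transcript length and library total, so levels may be set side by side between genes. Errors are the SD over libraries for TPM and shares, and the SE of limma's fit for log2 differences, with n = 3 per group in CD8 T cells and n = 5 in tumours. Read depth is unknown; 13538 to 14384 symbols reached 1 TPM in the CD8 libraries and 12345 to 13820 in the tumours. In the 3 control tables of the CD8 cells the column header names a mannose sample; the sample labels were followed here. Within each CD8 group, libraries 1 and 2 were the most alike across genes, with Pearson correlations of log2(TPM + 1) of 0.983 for mannose and 0.981 for control. The 12 T cell markers summed to 2613, 3352 and 5113 TPM in the mannose CD8 libraries 1 to 3. In the control CD8 libraries they summed to 5119 to 5512 TPM, against 11.2 to 115 TPM in the tumours. T cell markers were thus enriched in all 6 CD8 libraries. Markers of other cells were present in the sorted libraries as well. The 14 macrophage markers summed to 1600 to 2025 TPM with mannose and 4716 to 5023 TPM in controls. The 8 neutrophil markers summed to 269 to 473 TPM with mannose and 1063 to 1281 TPM in controls. The 12 carcinoma and epithelial markers ran the other way, at 1635 to 2505 TPM with mannose and 241 to 537 TPM in controls. In control tumours the macrophage markers summed to 2407 to 4747 TPM and the neutrophil markers to 638 to 838 TPM. Control CD8 libraries thus held about as much of the macrophage and neutrophil markers as control tumours, or more. Levels given for CD8 T cells are those of the sorted libraries, with these other cells included. None of the 12 carcinoma and epithelial markers was at 0 in every library of a group. Epcam, Krt7, Cldn4, Cldn7 and Pax8 stayed under 1 TPM in all 16 libraries, and Krt8, Krt18 and Krt19 made up most of the sum. In bulk RNA, fewer cells of a type and less RNA per cell cannot be told apart.

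Glycolysis takes glucose in through facilitative transporters, traps it as a phosphate by hexokinase, commits it at phosphofructokinase, and ends in pyruvate, which lactate dehydrogenase turns into lactate for export with a proton. Activated T cells and most carcinomas run this route even with oxygen at hand, and hypoxia-inducible factor raises many of its genes. The pentose phosphate pathway branches off after hexokinase and yields NADPH and ribose. Mannose enters cells through the same hexose transporters and is phosphorylated by hexokinase.

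Genes of uptake, hexose phosphorylation and lactate export were called in opposite directions in the CD8 libraries, so the promoters of Slc2a1 and Slc16a1, which rose, and of Hk3 and Slc16a3, which fell, are shown. RefSeq promoter windows of build GRCm38.p6 matched 33 of the 34 genes, all but Slc2a3, in 47 windows. Each sequence is the 250 bases before the start, 5′ to 3′ on the strand of the gene. They lie at chr4:119108495-119108744 on the plus strand (Slc2a1), chr3:104638414-104638663 on the plus strand (Slc16a1), chr13:55021386-55021635 on the minus strand (Hk3) and chr11:120948817-120949066 on the plus strand (Slc16a3). Capitals mark the letters ACGTG or GCGTG, the core that hypoxia-inducible factor is known to bind, or their reverse complements CACGT and CACGC.
Slc2a1: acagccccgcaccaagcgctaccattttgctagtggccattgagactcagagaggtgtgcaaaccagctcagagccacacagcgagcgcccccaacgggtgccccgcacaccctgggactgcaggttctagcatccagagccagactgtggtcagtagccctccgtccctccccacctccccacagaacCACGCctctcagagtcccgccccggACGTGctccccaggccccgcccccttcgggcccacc
Slc16a1: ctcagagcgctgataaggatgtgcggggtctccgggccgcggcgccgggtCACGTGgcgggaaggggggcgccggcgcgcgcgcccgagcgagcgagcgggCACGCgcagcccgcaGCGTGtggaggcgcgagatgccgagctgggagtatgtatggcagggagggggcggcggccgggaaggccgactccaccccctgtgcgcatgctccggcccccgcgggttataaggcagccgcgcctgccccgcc
Hk3: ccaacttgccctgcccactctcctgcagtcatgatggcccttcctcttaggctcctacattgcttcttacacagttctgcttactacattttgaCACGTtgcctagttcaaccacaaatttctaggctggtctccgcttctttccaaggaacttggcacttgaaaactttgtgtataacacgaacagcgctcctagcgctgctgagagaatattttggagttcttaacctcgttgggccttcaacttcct
Slc16a3: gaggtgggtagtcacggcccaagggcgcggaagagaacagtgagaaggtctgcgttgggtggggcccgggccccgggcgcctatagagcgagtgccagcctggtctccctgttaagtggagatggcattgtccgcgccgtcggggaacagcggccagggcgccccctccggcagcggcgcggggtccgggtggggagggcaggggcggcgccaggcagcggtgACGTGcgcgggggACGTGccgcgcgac
There were 2 matches before Slc2a1, 4 before Slc16a1, 1 before Hk3 and 2 before Slc16a3. In Slc16a1, CACGTG holds 1 match on each strand, which overlap. At least 1 match was found in 37 of the 47 windows (78.7%), against 38.6% of all 32851 promoter windows of the same length. These letters were found before genes that rose and before genes that fell. The windows of Eno2 and Tpi1, which rose, held no match, nor did those of Gpi1 and Rpe, which did not pass. All genes that fell, and the others that rose, had at least 1 match in a window.

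In the CD8 T cells, mannose went with higher expression of Slc2a1, Pfkl, Pfkm, Tpi1, Eno2, Slc16a1, Pdk1 and Pdha1 and with lower expression of Hk3, Pfkp, Eno1, Slc16a3 and Taldo1. The other 21 genes did not pass limma's test at an adjusted p of 0.05, taken over all 14280 genes tested on log2(TPM + 1). Of all genes tested, 23.2% were higher and 11.7% lower at that threshold, 34.9% in all. The 13 of 34 is thus near the share in all genes. At an unadjusted p under 0.05 it was 16 of 34, beside 46.3% of all genes. The mannose libraries lay wholly above the controls in 12 of the 34 genes and wholly below in 11, against 33.3% and 18.1% of all genes (51.4% in all). The median log2 difference was 0.01 over the 34 genes and 0.09 over all genes, with 17 genes above 0 and 17 below. Scaling choices moved the split of all calls: 66.4% were higher as deposited, 53.7% with quantile normalization, 50.4% with median-ratio scaling and 94.3% with libraries scaled to T cell markers. That last scaling moved the median of all genes to 0.72, so genes named below at values from 0 to 0.33 under it still lay below that median. With the like libraries 1 and 2 of each group averaged into 1, Eno2 and Pfkm stayed higher and Hk3, Slc16a3 and Taldo1 lower, and the other 8 called genes did not pass. Leaving out mannose 3 instead brought the lower genes to 8, and to 2509 of all genes, against 1674. In 11 of the 13 called genes, mannose library 3 lay nearest to the controls, as it did in 71.2% of the 4980 genes called. That library also had the highest T cell marker sum and the lowest carcinoma marker sum of the 3. Its neutrophil marker sum (269 TPM) was instead the farthest of the 3 from the controls (1063 to 1281 TPM). Its macrophage marker sum (1617 TPM) lay between those of mannose 2 (1600 TPM) and mannose 1 (2025 TPM).

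**Figure D1:**
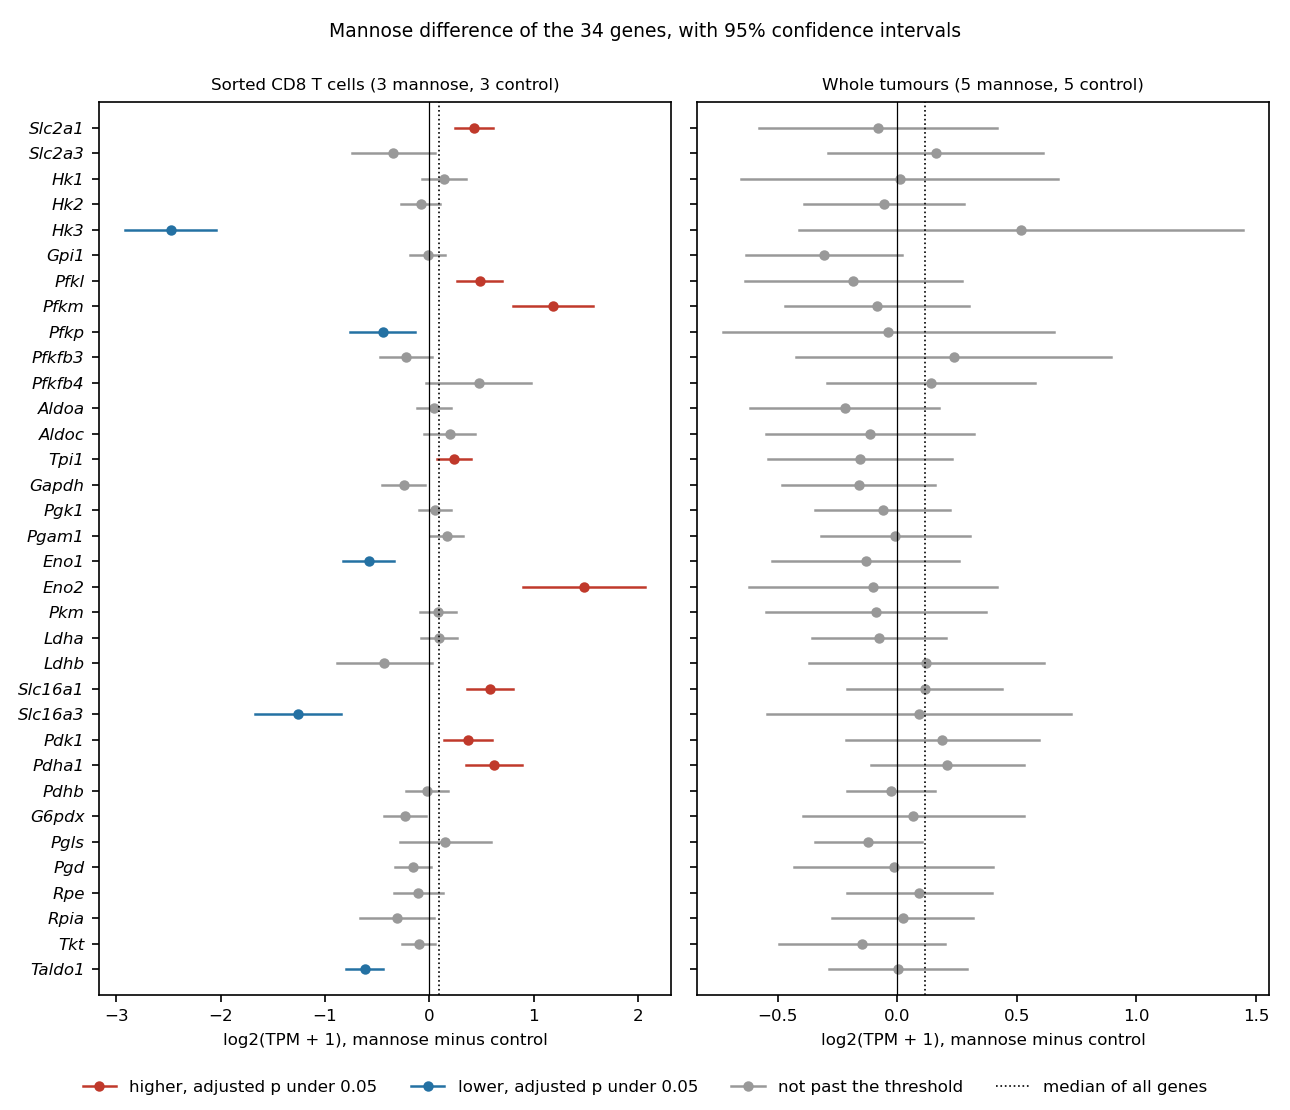
Mannose minus control on the log2(TPM + 1) scale (horizontal axis) for the 34 genes (rows), in sorted CD8 T cells (left, 3 mannose and 3 control libraries) and whole tumours (right, 5 and 5, on a narrower scale), with 95% confidence intervals; colours mark limma's adjusted p under 0.05 and dotted lines the median of all genes. In CD8 T cells 8 genes were higher and 5 lower, of which Pfkp, Eno1 and Taldo1 lay above 0, but below the median of all genes, after scaling to T cell markers; in tumours none passed.

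Of the glucose transporters and hexokinases, Slc2a1 rose, Hk3 fell and Slc2a3, Hk1 and Hk2 did not pass. Shares within a family are given as a description, without a test. Slc2a1, which encodes the widespread glucose transporter GLUT1, had 235, 213 and 205 TPM in mannose CD8 libraries, against 164, 158 and 163 TPM in control CD8 libraries. All mannose libraries were above all controls, and the difference was 0.43 ± 0.08 (log2, SE; adjusted p = 0.00662). It did not pass when all 16 libraries shared 1 estimate of the spread (adjusted p = 0.248). Slc2a3, the high-affinity transporter GLUT3 of lymphocytes and neurons, had 47.2, 52.4 and 73.4 TPM with mannose and 75.8, 76.3 and 65.3 TPM in controls. The groups overlapped because mannose 3 exceeded control 3, and the gene did not pass (log2 difference -0.35, adjusted p = 0.153). Slc2a1 made up 79.1% ± 4.9 of the summed TPM of the pair with mannose and 69.1% ± 2.04 in controls (SD, n = 3 each).

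Hk3, a hexokinase known mainly from myeloid cells, showed the largest difference of the 34 genes. It had 6.78, 5.80 and 10.1 TPM in mannose CD8 libraries, against 45.2, 44.7 and 47.2 TPM in control CD8 libraries. Every mannose library was far below every control, at a log2 difference of -2.48 ± 0.18 (adjusted p = 0.000375). The gene was called under all 16 alternatives in this comparison. All 14 macrophage markers and 6 of 7 tested neutrophil markers also fell between the same libraries, for example Csf1r, the receptor for macrophage colony-stimulating factor, by 1.91 on the log2 scale (adjusted p = 0.000228). The part of these cells in the fall of Hk3 was not tested. Hk1, the general hexokinase, averaged 107 ± 10.3 TPM with mannose and 97.0 ± 2.21 TPM in controls (log2 difference 0.14, adjusted p = 0.255). Hk2, the inducible form, averaged 50.03 ± 1.69 TPM with mannose and 53.1 ± 2.37 TPM in controls (-0.08, adjusted p = 0.447). Neither passed, and Hk1 held 65.0% ± 1.22 of the hexokinase TPM with mannose and 49.5% ± 1.18 in controls, while Hk3 held 4.54% ± 1.02 with mannose and 23.3% ± 0.45 in controls.

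**Figure D2:**
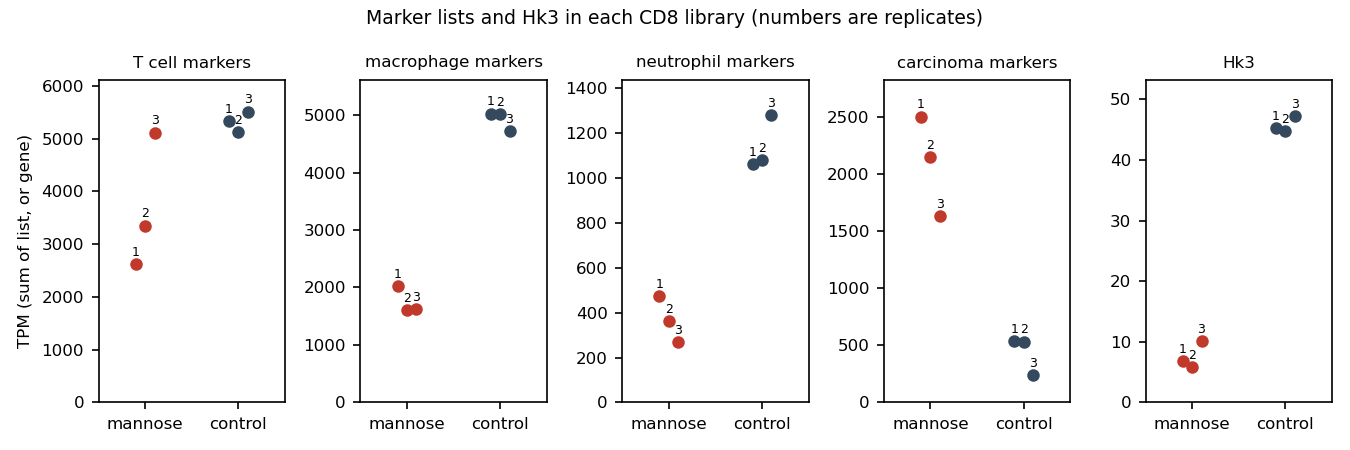
Summed TPM of marker lists and TPM of Hk3 (vertical axes, each from 0) in the CD8 mannose (left) and control (right) libraries, with 1 point per library and its replicate number. Macrophage and neutrophil markers and Hk3 were lower in every mannose library, carcinoma markers were higher in every mannose library, and T cell markers of mannose 3 (5113 TPM) lay just below the lowest control (5119 TPM).

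The 3 phosphofructokinase genes, whose products form the committed step of glycolysis, moved in different directions. Pfkm, the muscle-type subunit, had 26.9, 26.0 and 23.6 TPM in mannose CD8 libraries, against 11.7, 12.4 and 8.28 TPM in control CD8 libraries. The lowest mannose value was well above the highest control (log2 difference 1.19 ± 0.16, adjusted p = 0.00288), and the call held in all 16 alternatives. Pfkl, the liver-type subunit, had 116, 103 and 108 TPM with mannose and 83.7, 78.3 and 71.2 TPM in controls. The groups did not overlap, at a log2 difference of 0.48 ± 0.09 (adjusted p = 0.00807), but the gene did not pass when all 16 libraries shared 1 estimate of the spread (adjusted p = 0.148). Pfkp, the platelet-type subunit and the most abundant of the 3 in T cells, had 152, 163 and 214 TPM with mannose and 245, 239 and 230.1 TPM in controls. Mannose 3 came within a short distance of the lowest control, the log2 difference was -0.45 ± 0.13 (adjusted p = 0.0366), and the call was lost under 11 of 16 alternatives. It did not pass without any single control, or without mannose 1 or mannose 2 (adjusted p from 0.0798 to 0.127), and was above 0 at 0.25 with scaling to T cell markers. Pitrm1, a gene that overlaps Pfkp, rose by 1.00 on the log2 scale (adjusted p = 0.00842); how reads of the overlap were assigned is not given in the sources used here. In shares of the summed TPM, Pfkp held 56.4% ± 5.2 with mannose and 72.9% ± 1.24 in controls, Pfkl 35.3% ± 4.04 with mannose and 23.8% ± 0.81 in controls, and Pfkm 8.29% ± 1.26 with mannose and 3.29% ± 0.56 in controls. Pfkfb3 and Pfkfb4, bifunctional enzymes that set the level of the activator of phosphofructokinase, did not pass. Pfkfb3 had 30.95 to 31.9 TPM with mannose and 32.4 to 40.5 TPM in controls (adjusted p = 0.144), and Pfkfb4 10.95 to 18.7 TPM with mannose and 8.83 to 11.9 TPM in controls (adjusted p = 0.125).

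**Figure D3:**
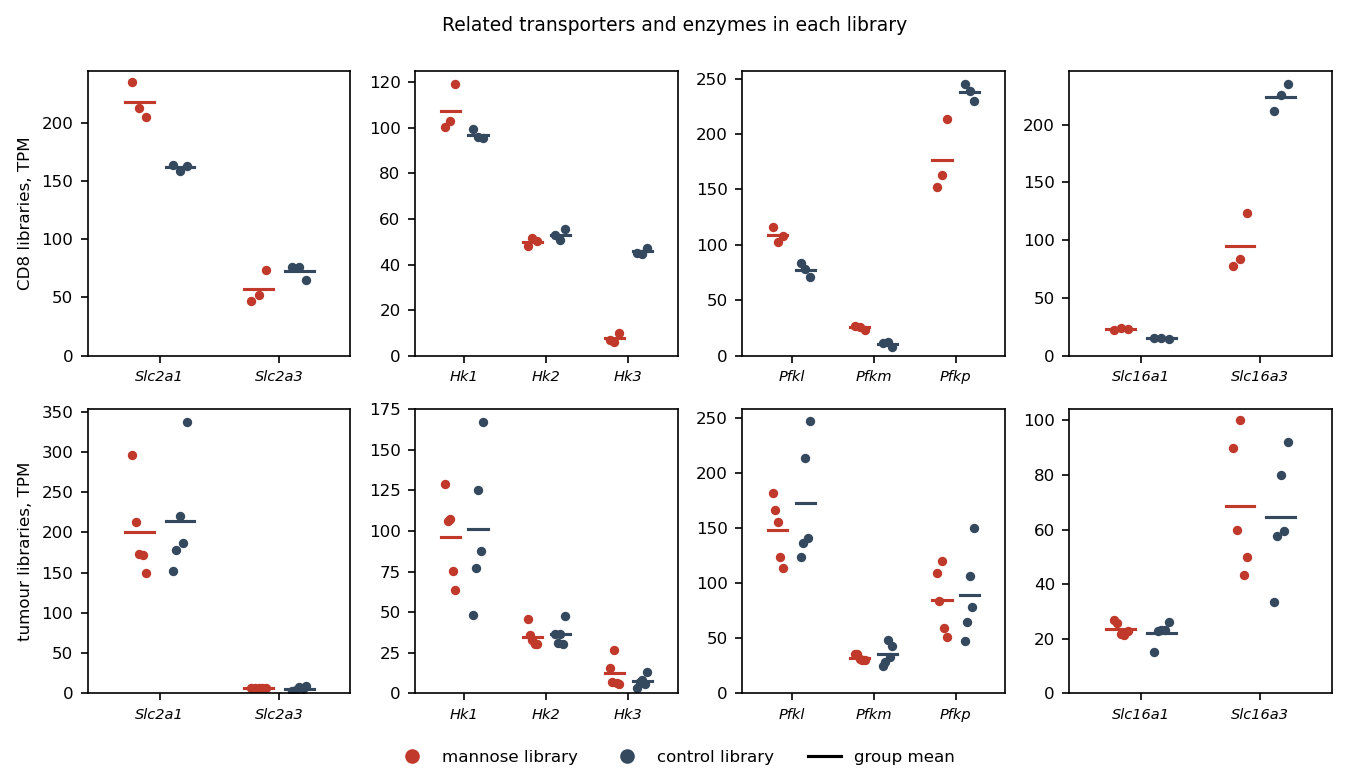
TPM (vertical axes, each from 0) of glucose transporters, hexokinases, phosphofructokinases and lactate transporters in every library, with mannose (red, left) beside control (blue, right) and lines at group means; the upper row shows CD8 T cells and the lower row whole tumours. In CD8 T cells Slc2a1, Pfkl, Pfkm and Slc16a1 were higher and Hk3, Pfkp and Slc16a3 lower with mannose without overlap, whereas every pair of groups overlapped in tumours.

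Among the enzymes from aldolase to pyruvate kinase, which split the hexose and recover ATP, Tpi1 and Eno2 rose, Eno1 fell and the other 6 did not pass. The groups overlapped in Aldoa and Pkm and not in the other 7, where 51.4% of all genes tested did not overlap either. Aldoa, Pgk1 and Pkm, the main aldolase, phosphoglycerate kinase and pyruvate kinase, differed by 0.05, 0.05 and 0.09 on the log2 scale, with 95% intervals that together ran from -0.11 to 0.26. Tpi1, the isomerase of the triose phosphates, had 1067, 1012 and 1003 TPM in mannose CD8 libraries, against 908, 866 and 841 TPM in control CD8 libraries. The groups were apart by a small step (log2 difference 0.24 ± 0.07, adjusted p = 0.0363), and 9 of 16 alternatives ended the call, among them leaving out any control, mannose 1 or mannose 2 (adjusted p from 0.0647 to 0.118). Gapdh, the dehydrogenase that yields NADH and the most abundant of the 34 transcripts, had 4063 to 4616 TPM with mannose and 4898 to 5345 TPM in controls. Its mannose values were all lower, but it did not pass (log2 difference -0.25, adjusted p = 0.0686). Pgam1, a phosphoglycerate mutase, and Aldoc, the brain-type aldolase, did not pass either. Pgam1 averaged 517 ± 23.8 TPM with mannose and 461 ± 6.32 TPM in controls (adjusted p = 0.0956), and Aldoc 37.2 ± 2.28 TPM with mannose and 32.4 ± 2.86 TPM in controls (adjusted p = 0.18).

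The enolases, which form phosphoenolpyruvate, gave the largest rise of the 34 genes and a fall whose call hung on near-identical copies. Eno2, known as the neuronal enolase and as a target of hypoxia-inducible factor, had 81.4, 67.2 and 58.5 TPM in mannose CD8 libraries, against 24.2, 33.5 and 16.6 TPM in control CD8 libraries. All mannose libraries were clearly above the controls (log2 difference 1.48 ± 0.25, adjusted p = 0.00526), and the call held in all 16 alternatives. Eno1, the main enolase, had 661, 695 and 842 TPM with mannose and 1109, 1045 and 1122 TPM in controls. This was a gap without overlap, at -0.58 ± 0.10 (adjusted p = 0.0065). Eno1 has near-identical copies, however: a search of annotated transcripts found Eno1b (99.5% identity), Gm4735 (99.6%) and Gm5855 (96.3%). Those copies held 56.2% to 63.9% of the summed TPM with mannose and 45.1% to 48.5% in controls. Eno1b had 549, 517 and 519 TPM with mannose and 431, 487 and 446 TPM in controls, opposite to Eno1, and did not pass (adjusted p = 0.0608). This search and the summing were added after the values had been seen. Eno1 and its copies together came to 1838 ± 78.9 TPM with mannose and 2058 ± 37.5 TPM in controls, and the fall no longer passed (log2 difference -0.16, adjusted p = 0.111). The sums still did not overlap, at 1764 to 1921 TPM with mannose and 2029 to 2100 TPM in controls. How the authors' counting shared reads among these copies was not tested.

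**Figure D4:**
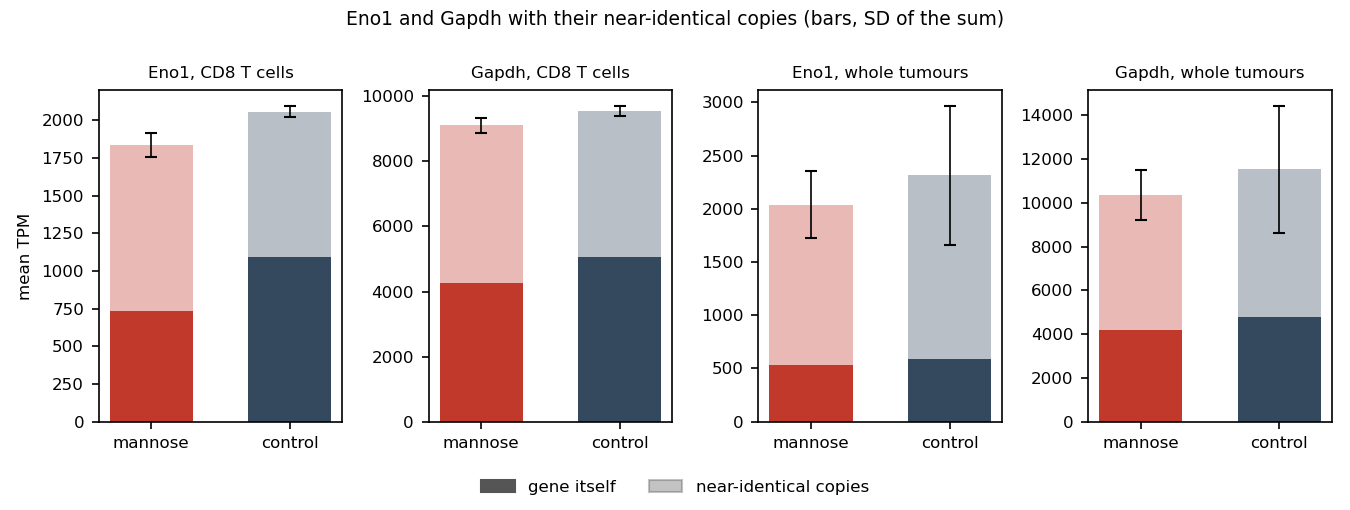
Mean TPM (vertical axes, from 0) of Eno1 and of Gapdh (dark) with their near-identical copies stacked on top (pale), mannose left of control, in CD8 T cells (n = 3 each) and whole tumours (n = 5 each); error bars are the SD of the sum. In CD8 T cells the sum for Eno1 was 1838 TPM with mannose and 2058 TPM in controls, a smaller step than in Eno1 alone (733 and 1092 TPM).

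Gapdh has many more such copies, of which 76 were present in the tables. They held 50.7% to 55.2% of the summed TPM with mannose and 45.0% to 48.6% in controls, nearly all of it in Gm13394, Gm7336, Gm10359 and Gm12671. With its copies, Gapdh summed to 9105 ± 233 TPM with mannose and 9549 ± 155 TPM in controls, a log2 difference of -0.07 (adjusted p = 0.522). These sums were narrowly apart, at 8892 to 9354 TPM with mannose and 9403 to 9713 TPM in controls. A level of Gapdh read from these tables alone is therefore uncertain.

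Of the lactate genes, Slc16a1 rose, Slc16a3 fell and the dehydrogenases Ldha and Ldhb did not pass. Ldha, which favours lactate from pyruvate, had 1749, 1701 and 1876 TPM in mannose CD8 libraries, against 1708, 1646 and 1622 TPM in control CD8 libraries. The groups overlapped, and the 95% interval of the log2 difference ran from -0.08 to 0.27. Ldha held 99.7% of the dehydrogenase TPM with mannose and 99.6% in controls. Ldhb, the heart-type subunit, stood at 3.85 to 6.70 TPM with mannose and 6.90 to 7.67 TPM in controls and did not pass (adjusted p = 0.122). Slc16a3, the exporter MCT4 of strongly glycolytic cells, had 77.7, 83.4 and 124 TPM with mannose and 212, 226 and 235 TPM in controls. All mannose values were far lower, at -1.26 ± 0.17 (adjusted p = 0.00295). Slc16a1, the transporter MCT1 that carries lactate either way, had 22.6, 23.8 and 23.1 TPM with mannose and 15.5, 15.6 and 14.4 TPM in controls. That was a rise without overlap of 0.58 ± 0.09 (adjusted p = 0.00468). Both transporters need basigin to reach the membrane, and Bsg, its gene, had 743, 656 and 640 TPM with mannose and 448, 482 and 466 TPM in controls (0.54 ± 0.08, adjusted p = 0.00383). Scaled to T cell markers, Slc16a3 remained below 0 at -0.57 but did not pass (adjusted p = 0.0786), while the median of all genes moved to 0.72. Slc16a1 held 20.1% ± 3.86 of the summed TPM of the pair with mannose and 6.34% ± 0.53 in controls.

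At the entry of pyruvate into mitochondria, Pdha1, the catalytic subunit of pyruvate dehydrogenase, had 107, 107 and 87.8 TPM in mannose CD8 libraries, against 69.0, 67.7 and 58.5 TPM in control CD8 libraries. The lowest mannose library was above the highest control (log2 difference 0.62 ± 0.11, adjusted p = 0.00691). Pdk1, a kinase that switches the enzyme off, had 43.8, 42.0 and 40.8 TPM with mannose and 35, 29.2 and 33.4 TPM in controls. It rose by 0.37 ± 0.10 (adjusted p = 0.0263), a call that 8 of 16 alternatives ended, among them leaving out control 2, control 3, mannose 1 or mannose 2 (adjusted p from 0.0541 to 0.092). Pdhb, the partner subunit of Pdha1, averaged 85.7 ± 6.82 TPM with mannose and 87.0 ± 3.14 TPM in controls and did not pass (adjusted p = 0.858).

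Of the 7 pentose phosphate genes, 1 fell and 6 did not pass; 6 of the 7 differences were below 0, as were 5977 of the 14280 over all genes, of which 11.7% fell. Taldo1, the transaldolase of the non-oxidative branch, had 128, 134 and 145 TPM in mannose CD8 libraries, against 208, 212 and 209 TPM in control CD8 libraries. The controls lay within a few TPM of each other and all mannose libraries far below (-0.62 ± 0.07, adjusted p = 0.00203). Scaled to T cell markers, its difference was 0.075, above 0 but under the 0.72 of all genes. G6pdx, which opens the oxidative branch, had 34 to 35.2 TPM with mannose and 39.2 to 43.7 TPM in controls. Pgd, the next dehydrogenase of that branch, had 81.9 to 87.6 TPM with mannose and 90.3 to 97.1 TPM in controls. In both the groups were apart without passing (adjusted p = 0.0693 and 0.137). Pgls, the lactonase between them, had 69.7 to 84.6 TPM with mannose and 51.4 to 84.3 TPM in controls (0.15, adjusted p = 0.549). Rpia and Rpe, the isomerase and epimerase of ribulose phosphate, and Tkt, the transketolase, differed by -0.31, -0.11 and -0.10, with adjusted p of 0.146, 0.444 and 0.276. Gpi1, the isomerase at the branch point of both pathways, averaged 696 ± 16.6 TPM with mannose and 705 ± 37.5 TPM in controls (-0.02, adjusted p = 0.871).

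Of 41 further genes of these pathways, 26 could be tested in the CD8 libraries. Of these, 9 rose, 3 fell and 14 did not pass, beside 23.2% higher and 11.7% lower over all genes. Eno3, the muscle-type enolase, had 134, 128 and 109 TPM with mannose and 53.3, 52.4 and 31.5 TPM in controls, a rise of 1.45 ± 0.21 (adjusted p = 0.00329). Pdp1, a phosphatase that switches pyruvate dehydrogenase on, averaged 22.6 ± 1.32 TPM with mannose and 13.3 ± 0.39 TPM in controls (0.72, adjusted p = 0.00296). Pdk2, another of the opposing kinases, averaged 8.45 ± 2.49 TPM with mannose and 3.34 ± 0.15 TPM in controls (1.084, adjusted p = 0.0101; 0.0909 with libraries 1 and 2 of each group averaged). Among the falls, Slc2a6, a hexose transporter known from macrophages, averaged 2.30 ± 0.38 TPM with mannose and 10.3 ± 3.57 TPM in controls (-1.73, adjusted p = 0.00294). Slc16a7, the pyruvate and lactate transporter MCT2, fell by 1.198 (adjusted p = 0.00522, and 0.0607 with that averaging). Its levels were 0.25 ± 0.08 TPM with mannose and 1.90 ± 0.53 TPM in controls. Slc16a7 met the filter of 1 TPM only through the 3 control libraries, so the filter itself favoured a fall. The kinase Pdk3 fell by 0.65 (adjusted p = 0.0166), but not without control 2, control 3, mannose 1 or mannose 2, and stood at 0.031 with scaling to T cell markers.

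Of 18 hypoxia targets outside glycolysis, all tested, 7 rose and 2 fell, with a median log2 difference of 0.27, beside 23.2% higher, 11.7% lower and a median of 0.09 over all genes. P4ha2, a collagen prolyl hydroxylase, had 66.5, 60.4 and 45.0 TPM with mannose and 16.6, 13.9 and 7.22 TPM in controls (2.15 ± 0.30, adjusted p = 0.00295). Its relative P4ha1 rose by 1.04 (adjusted p = 0.00345), the stress gene Ndrg1 by 0.79 (adjusted p = 0.00149; 0.0725 in the fit of all 16 libraries) and the mitophagy receptor Bnip3l by 0.61 (adjusted p = 0.00224). Egln3, an oxygen-sensing prolyl hydroxylase, fell by 1.35 (adjusted p = 0.00232; 0.0843 with scaling to T cell markers), and Mxi1, an antagonist of Myc, fell by 0.45 (adjusted p = 0.0185), a call lost without control 2, control 3 or mannose 1 and at 0.25 with scaling to T cell markers.

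Among 9 regulators, 2 rose and 4 fell, beside 23.2% higher and 11.7% lower over all genes. Arrdc4 and Txnip, arrestin-like proteins whose transcription follows glucose and which limit its uptake, fell by 1.96 (adjusted p = 0.00104) and 0.54 (adjusted p = 0.00271). Arrdc4 had 4.73, 4.26 and 7.08 TPM with mannose and 22.7, 21.6 and 25.9 TPM in controls. Txnip had 153, 168 and 167 TPM with mannose and 241, 234 and 233 TPM in controls. Both were apart without overlap, and Txnip stood at 0.16 with scaling to T cell markers, against 0.72 for the median of all genes. Hif1a fell by 0.57 (adjusted p = 0.0134), which did not pass without mannose 2, and was at 0.13 with scaling to T cell markers. Myc, a driver of glycolytic genes, averaged 59.0 ± 14.9 TPM with mannose and 31.1 ± 3.73 TPM in controls and rose by 0.88 (adjusted p = 0.0158), but not without control 3, mannose 1 or mannose 2. Nfe2l2, the oxidative stress factor, fell by 0.36 (adjusted p = 0.0463), and Keap1, the adaptor that marks its product for decay, rose by 0.32 (adjusted p = 0.0474). Each of those last calls was lost under 11 of 16 alternatives, and Nfe2l2 was at 0.33 with scaling to T cell markers. Of 5 genes by which mannose phosphate enters glycolysis or glycosylation, Pmm1, a phosphomannomutase, rose by 0.60 (adjusted p = 0.0456) and Gmppb, which makes GDP-mannose, fell by 0.60 (adjusted p = 0.0341). Each of these was lost under 10 of 16 alternatives, and Gmppb was at 0.065 with scaling to T cell markers. Mpi, which turns mannose phosphate into fructose phosphate, had 9.26 ± 0.99 TPM with mannose and 8.14 ± 0.94 TPM in controls and did not pass (adjusted p = 0.393).

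Markers of other cells moved with these differences. The keratin Krt8, found in carcinoma cells, had 1050.1, 904 and 674 TPM in mannose CD8 libraries, against 206, 219 and 90.4 TPM in control CD8 libraries. Of the 5 carcinoma markers tested, Krt8, Krt18, Krt19 and Msln rose and Cdh1 fell; of 9 fibroblast markers 6 rose. Of the 12 T cell markers, 3 fell, and all 12 differences were below 0. Control CD8 libraries held less Pfkl, Pfkm and Tpi1 than any control tumour, and more Slc16a3, Hk3, Pfkp, Taldo1 and, as a single row, Eno1. With its copies, Eno1 overlapped, at 2029 to 2100 TPM in control CD8 libraries and 1748 to 3113 TPM in control tumours. The other 5 genes called, Slc2a1, Eno2, Slc16a1, Pdk1 and Pdha1, overlapped. Of the further genes that rose, Eno3 (242 to 349 TPM), P4ha2 (51.95 to 112 TPM) and Bsg (997 to 1315 TPM) were higher in every control tumour than in control CD8 libraries. Ndrg1 overlapped, and Bnip3l was lower in every control tumour (84.1 to 118 TPM). The part of carried-over tumour cells, fibroblasts or myeloid cells in the differences of the 13 genes and of the further genes was not tested.

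In whole tumours, none of the 34 genes passed the test of mannose against control. No gene of the 13282 tested did (0%), and none of the 34 had an unadjusted p under 0.05, against 827 of all genes (6.23%). The groups overlapped in all 34 genes; they did not in 1.63% of all genes. The median log2 difference was -0.03 over the 34 genes, with 14 above 0 and 20 below, and 0.12 over all genes. The nearest to the threshold was Gpi1, with 703, 605, 572, 558 and 578 TPM in mannose tumours, against 866, 537, 769.8, 660.4 and 964 TPM in control tumours. Controls 1, 3 and 5 exceeded all mannose tumours and control 2 lay below them all (log2 difference -0.31 ± 0.15, adjusted p = 0.754). Aldoa averaged 2179 ± 289 TPM in mannose tumours and 2597 ± 731 TPM in control tumours (-0.22), and Pgls 301 ± 25.0 TPM in mannose tumours and 328 ± 37.6 TPM in control tumours (-0.12); neither passed. On the other side, Pdha1 averaged 86.2 ± 4.8 TPM in mannose tumours and 75.8 ± 15.4 TPM in control tumours (0.21), and Pdk1 44.3 ± 3.7 TPM in mannose tumours and 39.9 ± 10.8 TPM in control tumours (0.19). Hk3 had 15.9, 7.24, 26.8, 6.23 and 5.63 TPM in mannose tumours and 3.31, 6.73, 8.52, 5.76 and 13.5 TPM in control tumours (0.52 ± 0.42). Its highest value was in mannose 3, where macrophage markers also summed highest (7208 TPM). Its lowest was in control 1, where they summed lowest (2407 TPM). Between these the order differed: control 5 had 13.5 TPM of Hk3 at a marker sum of 2676 TPM, and control 3 had 8.52 TPM at 4747 TPM. The part of these cells was not tested.

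The 34 genes varied among tumours within each group. The 34 genes summed to 15092 to 19737 TPM in mannose tumours and 15219 to 25177 TPM in control tumours. Control 5 held the highest value of 20 genes, and control 3 that of 7 more; control 1 held the lowest value of 20. Over the 10 tumours the genes mostly rose and fell together: the median Spearman correlation was 0.64 over the 561 pairs of genes, and 513 pairs were positive. Pkm and Ldha each had a median correlation of 0.79 with the other 33 genes, while Pdha1 (-0.13) and Rpe (-0.018) did not follow them. The 10 points of each pair share library, composition and the fixed total of TPM. The same figures were not computed for all genes, so a trait of these 34 cannot be told from shifts of whole libraries. Leaving out control 1 moved the median log2 difference of all genes from 0.12 to 0.02. Control 5 also had the highest sums of carcinoma markers (5263 TPM) and of hypoxia targets (2835 TPM) of the 10 tumours. Control 1 had the lowest sum of hypoxia targets (1387 TPM). Its carcinoma markers were not low, however: they summed to 4199.5 TPM, above every mannose tumour (3111 to 4079 TPM). Skeletal muscle markers summed to 2.48 to 387 TPM in mannose tumours and 32.6 to 692 TPM in control tumours; their part was not tested.

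**Figure D5:**
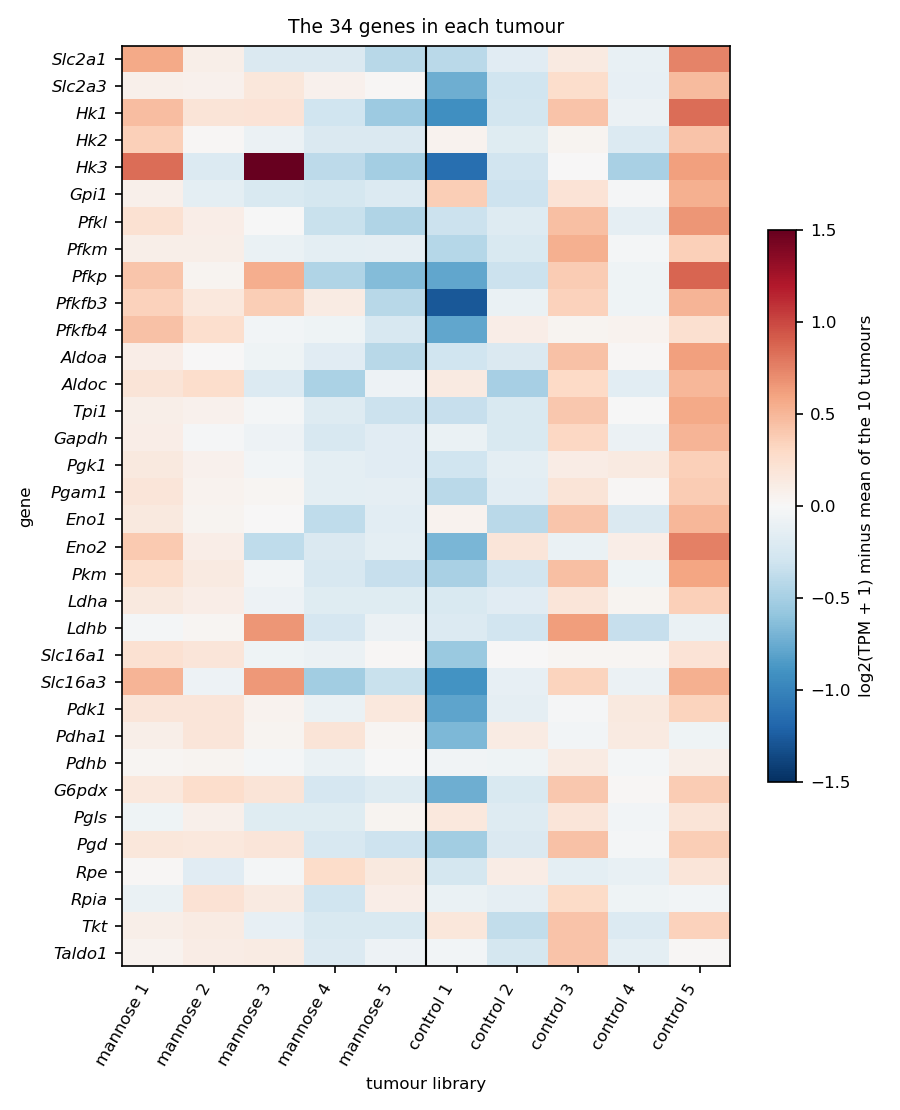
Each cell shows the log2(TPM + 1) of a gene (rows) in a whole tumour library (columns, mannose left of the line, control right) minus the mean of the 10 tumours for that gene, on a scale from blue (lower) to red (higher). The columns of control 5 and control 3 are mostly red and that of control 1 mostly blue, and no row separates the groups.

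The further pathway genes, hypoxia targets, regulators and mannose entry genes gave no call in tumours either, with 26, 18, 9 and 5 tested. Among these, Bsg, Nfe2l2 and Pdhx had an unadjusted p under 0.05. Bsg averaged 941 ± 37.3 TPM in mannose tumours and 1136 ± 130 TPM in control tumours, a log2 difference of -0.26 (adjusted p = 0.754), while in CD8 libraries it rose.

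The difference between the mannose effects in CD8 T cells and in tumours was tested as an interaction over all 16 libraries, in which 18.7% of 15498 genes passed; of the 34 genes, 5 did. Hk3 moved by -2.48 in CD8 T cells and 0.52 in tumours, a difference of -3.00 ± 0.61 (adjusted p = 0.00303). For Pfkm the difference was 1.27 ± 0.27 (adjusted p = 0.00387), and for Eno2 1.58 ± 0.39 (adjusted p = 0.00999). These 3 genes kept their calls whichever single library was left out. Taldo1 differed by -0.62 ± 0.18 (adjusted p = 0.0273) and Slc16a3 by -1.35 ± 0.43 (adjusted p = 0.0392); both calls hung on single libraries. Taldo1 did not pass without CD8 mannose 1 or 2 or any CD8 control (adjusted p from 0.0521 to 0.0819). Slc16a3 did not pass without those, without tumour mannose 1, 2 or 3, or without tumour control 2 or 4 (adjusted p from 0.0501 to 0.118). Slc16a1, Pfkl, Pdha1 and the other genes called in CD8 T cells did not pass this test.

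Levels in control CD8 libraries and control tumours, set side by side without a test because the tables were made on different gene rows, differed among related genes. Taken as single rows, 12 of the 34 genes were higher in every control CD8 library than in any control tumour, Eno1 among them. In the same way 8 were lower in every one, and 14 overlapped. Of the 15498 genes expressed in these libraries, 37.9% were higher, 24.6% lower and 62.5% apart in all, so the 20 of 34 is near the share in all genes. Slc2a3 averaged 72.5 TPM in control CD8 libraries and 6.04 TPM in control tumours, so Slc2a1 held 69.1% of the pair in CD8 T cells and 97.3% in tumours. Pfkp held 72.9% of the phosphofructokinase TPM in control CD8 libraries and 29.3% in control tumours, and Pfkl 23.8% in control CD8 libraries and 58.6% in control tumours. Pfkfb3 held 77.8% of its pair in control CD8 libraries and 28.1% in control tumours. Slc16a3 averaged 224 TPM in control CD8 libraries and 64.6 TPM in control tumours. Pgls, the widest gap in the other direction, averaged 68.2 TPM in control CD8 libraries and 328 TPM in control tumours. As single rows, Gapdh was the highest of the 34 in both, Aldoa, Pkm and Ldha filled the next 3 ranks, and Ldhb was the lowest. With its copies, however, Eno1 came to 2058 TPM in control CD8 libraries, above Aldoa alone (1953 TPM), and to 2314 TPM in control tumours, above Ldha alone (2169 TPM).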

How the data were processed

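Each library was deposited as a table of gene symbols with TPM values, made by the authors with fastp, HISAT and RSEM on build GRCm39, per the submitters' processing notes, which give neither versions nor the role of each tool. TPM holds no read counts, so counting error cannot be computed. Rows that shared a symbol were summed, and groups were taken from the sample labels. Mannose was compared with control in limma 3.58.1 (R 4.3.3, variance trend) on log2(TPM + 1). Genes needed at least 1 TPM in 3 CD8 or 5 tumour libraries, and p-values were adjusted over all tested genes (Benjamini-Hochberg, threshold 0.05). The design reserved a count test for count tables, which these are not. The interaction was fitted over 52916 symbols shared by both kinds of table. The fits were tried on simulated libraries with independent noise, which cannot show how shifts shared among libraries affect the calls. Copies of the genes were sought with blastn 2.17.0 in GENCODE vM21 transcripts, at 95% identity or more over at least 300 bases. Named genes were all that passed, or the 3 of smallest p per direction, the 5 of smallest interaction p, and up to 4 per direction from each further list. The 34 genes and the lists were chosen with earlier results of these data known.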

Additional observations from a re-analysis of the deposited data

Results flagged for a closer look

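The mannose effect in CD8 T cells minus that in tumours passed limma's interaction test for 5 of the 34 genes, beside 18.7% of all genes tested. It was -3.00 on the log2 scale for Hk3, 1.27 for Pfkm, 1.58 for Eno2, -1.35 for Slc16a3 and -0.62 for Taldo1; the Slc16a3 and Taldo1 calls were lost when single libraries were left out. Single tumours stood apart from the other 4 of their group in 4 of 68 checks, where chance would flag about 1 in 20. Pfkfb4 had 18.9 TPM in control 1, against 33.98 to 39.23 TPM in the other controls. Ldhb had 6.67 TPM in mannose 3, against 3.07 to 3.96 TPM in the other mannose tumours, and 6.52 TPM in control 3, against 2.82 to 3.54 TPM in the other controls. Rpia had 19.2 TPM in control 3, against 14.1 to 15.1 TPM in the other controls.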

How the results depend on the processing

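In CD8 T cells, median-ratio scaling brought the lower genes to 10 of the 34 and 2534 of all genes. Array weights gave 11 of the 34 lower, with 5114 of all genes higher and 3517 lower. Fitting all 16 libraries together left 4 of the 34 higher (2748 of all genes). With libraries 1 and 2 of each group averaged, 2 were higher and 3 lower (1182 and 585 of all genes). Scaling to T cell markers gave 13 higher and 1 lower (5345 and 325 of all genes). It also turned Taldo1 to 0.075, Eno1 to 0.12, Pfkp to 0.25, Pdk3 to 0.031, Mxi1 to 0.25, Txnip to 0.16, Hif1a to 0.13, Nfe2l2 to 0.33 and Gmppb to 0.065 on the log2 scale, none passing and all below the median of all genes, which was then 0.72. Leaving out single libraries gave 4 to 8 of the 34 lower, and 1909 to 3610 higher and 894 to 2509 lower of all genes. In the interaction, quantile normalization called 9 of the 34 (3723 of all genes) and array weights 11 (6323 of all genes), and leaving out single libraries 3 to 7 (1905 to 4010 of all genes). In tumours, 0 to 1 gene of all was called when a library was left out, and Hk3 was -0.027 without control 1 and mannose 3, which follows from the choice, since they held its lowest control and highest mannose value. The cause of the other shifts was not tested. Correlations between the deviations of same-numbered libraries ran from -0.51 to 0.28 in tumours and from 0.06 to 0.16 in CD8 T cells. The best match was the control of the same number for tumour replicate 3 and for CD8 replicates 2 and 3. For the other replicates it was a control of another number. With the replicate block, 9 of the 34 genes were higher and 5 lower in CD8 T cells (3152 and 1686 of all genes), none passed in tumours and 4 passed the interaction (2493 of all genes). Depth is unknown in TPM, so counting error at low genes such as Ldhb cannot be set apart from differences between samples.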

Other observations

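The near-identical copies of Eno1 held 70.6% to 76.2% of the summed TPM in mannose tumours and 68.2% to 76.5% in control tumours. Together, Eno1 and its copies came to 2037 ± 316 TPM in mannose tumours and 2314 ± 652 TPM in control tumours. Pgam1-ps2, a copy of the phosphoglycerate mutase gene Pgam1, was listed at 0 in all 6 CD8 libraries. In tumours it had 6.28 to 148 TPM with mannose and 0 to 150 TPM in controls, with 0 in control 1.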
